A study of Ovis aries with 56 samples.

Results

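The 9 genes described here belong to microglia, the resident macrophages of the brain, and to antigen presentation. They are CTSS, B2M, CD86, CYBA, FCER1G, TYROBP, CD14, ITGAM and LYZ. Their probes were every non-control probe whose gene name or description names one of the genes, which gave 9 of 879 named genes and 17 of 15008 distinct probes, 1 for CTSS and 2 for each other gene. All 17 were among the 12930 probes with enough values to be tested. The RNA came from the amygdala, a forebrain region of emotional and social behaviour, of 30 Scottish Mule Texel Cross sheep aged 50 weeks, in 8 pairs of twin rams and 7 pairs of twin ewes. In each pair 1 twin carried 3.6 mg subcutaneous implants of goserelin acetate, an analogue of gonadotropin-releasing hormone (GnRH), renewed at 4-week intervals, which began in rams at an age of 8 weeks and in ewes at 28. The other twin was untreated and served as the control. Rams and ewes were kept apart throughout, so sex, housing and the age at which implants began cannot be told apart in a comparison of GnRHa ewes with GnRHa rams, nor sex and housing in one of control ewes with control rams.

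Each array set 1 side of 1 animal's amygdala against pooled amygdala RNA in the other dye, and every value below is a log2 ratio of the sample to that pool. The 8 groups (ram or ewe, control or GnRHa, left or right) had 7 arrays each, of which 41 arrays from 25 animals were used. The other 15 were not used, since their control RNAs of known ratio gave slopes near 0 against the remaining arrays (absolute slope 0.0244 to 0.208, where used arrays gave 1.13 to 1.26). In 3 used arrays the slope was negative and the values were multiplied by -1: the left and right arrays of GnRHa ram replicate 6, which are 1 animal, and the right array of control ewe replicate 7. This left 9 arrays of 6 control rams, 12 of 7 GnRHa rams, 10 of 7 control ewes and 10 of 5 GnRHa ewes. Another 4 used arrays lay far out on the first principal component, so the calls below are also given without them where that ends a call. All used left arrays of ewes carried the sample in Cy3 and all right ones in Cy5, so in ewes a difference between sides cannot be told apart from one between dyes except through the dye term estimated in rams.

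Microglia and other macrophages take up material, break it down in lysosomes and show peptides of it to T cells. CTSS (cathepsin S) is the lysosomal protease that trims the invariant chain so that class II molecules of the major histocompatibility complex (MHC) can load peptides, B2M (beta-2-microglobulin) is the light chain of MHC class I, and CD86 is a costimulatory ligand for T cells. CYBA is the p22phox subunit of the phagocyte NADPH oxidase. FCER1G and TYROBP are membrane adaptors that carry activating motifs for receptors of myeloid cells. CD14 is a co-receptor for bacterial lipopolysaccharide, ITGAM is the alpha chain of the complement receptor CR3, and LYZ is lysozyme, which cleaves bacterial cell walls. In whole tissue, fewer cells of a type and less RNA per cell cannot be told apart.

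The probes differed in how well a gene could be read. The 2 probes of a gene followed each other across arrays with Pearson's r of 0.989 for B2M, 0.933 for FCER1G, 0.911 for CYBA and 0.710 for TYROBP. For CD86 r was 0.335, for CD14 0.148 and for LYZ 0.101, and for ITGAM it was 0.135 over the 17 arrays on which both were measured. The probes of CD14, ITGAM and LYZ and the dimmer one of CD86 lay between the 13.7th and 40.6th percentile of mean brightness over all probes. The brighter ITGAM probe had a value on 26 of 41 arrays and the brighter LYZ probe on 37. The values below are of the brighter probe unless the dimmer is named. Differences for CD14, ITGAM and LYZ therefore rest on dim spots, and for these genes and CD86 the 2 probes did not move together.

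CTSS was higher in GnRHa ewes than in GnRHa rams. In control rams the 5 left arrays read -0.17, -0.12, 0.15, 0.17 and -0.21 and the 4 right arrays -0.35, 0.23, -0.28 and -0.19. In GnRHa rams the 12 arrays ran from -0.70 over a median of -0.39 to -0.07, so that every one lay below the pool. Control ewes spread far more widely, with -0.33, 1.20, -0.25, -0.36 and -0.59 on the left and 0.48, 0.09, 0.24, 0.68 and 0.03 on the right. GnRHa ewes read -0.00051, 0.32, 0.31, 1.01 and 0.43 on the left and 0.93, 1.59, 0.04, 0.45 and 0.76 on the right. The ranges of GnRHa ewes and GnRHa rams did not overlap, with 10 of 10 ewe arrays above the highest of 12 ram arrays, a separation that 0.0696% of all probes showed. The ranges of control ewes and control rams overlapped. In limma's fit over all probes, with animal as a random block, the difference of ewes minus rams under GnRHa was 0.98 ± 0.18 (SE; adjusted p = 0.0111), with a 95% interval of 0.62 to 1.33. In controls it was 0.20 ± 0.19 (adjusted p = 0.672). Within arrays of a single dye the difference under GnRHa was 0.78 in Cy3 (adjusted p = 0.178) and 1.17 in Cy5 (adjusted p = 0.0394).

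Of the 17 probes, 2 were called in that comparison of GnRHa ewes with GnRHa rams at an adjusted p of 0.05, against 0.155% of all 12928 probes tested in it (0.147% higher in ewes). They were CTSS and the dimmer probe of CYBA. At an unadjusted p of 0.05 the count was 8 of 17, against 7.77% of all probes. Genes other than CTSS had 2 probes each, so here and below a count of probes is not one of independent genes. The members were also chosen with earlier results of these data known. Here and below, their shares and medians set against all probes are therefore a description and not an independent test of the set. By the brighter probes alone 1 of 9 genes was called, with 7 higher and 2 lower in ewes. The members' median difference was 0.40 and that of all probes -0.00803, with 12 member probes higher and 5 lower in ewes, where 48.7% of all probes were higher. The CTSS call was lost with all 56 columns (0.73, adjusted p = 0.312), without the 3 turned columns (0.93, adjusted p = 0.0503), with them as deposited (0.78, adjusted p = 0.225) and without the 4 outlying arrays (0.91, adjusted p = 0.0549). None of these 4 settings called any member probe. Leaving out each array in turn kept the CTSS call in 41 of 41 fits (adjusted p from 0.000251 to 0.0393) and that of the dimmer CYBA probe in 20 of 41 (0.0148 to 0.134).

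**Figure D1:**
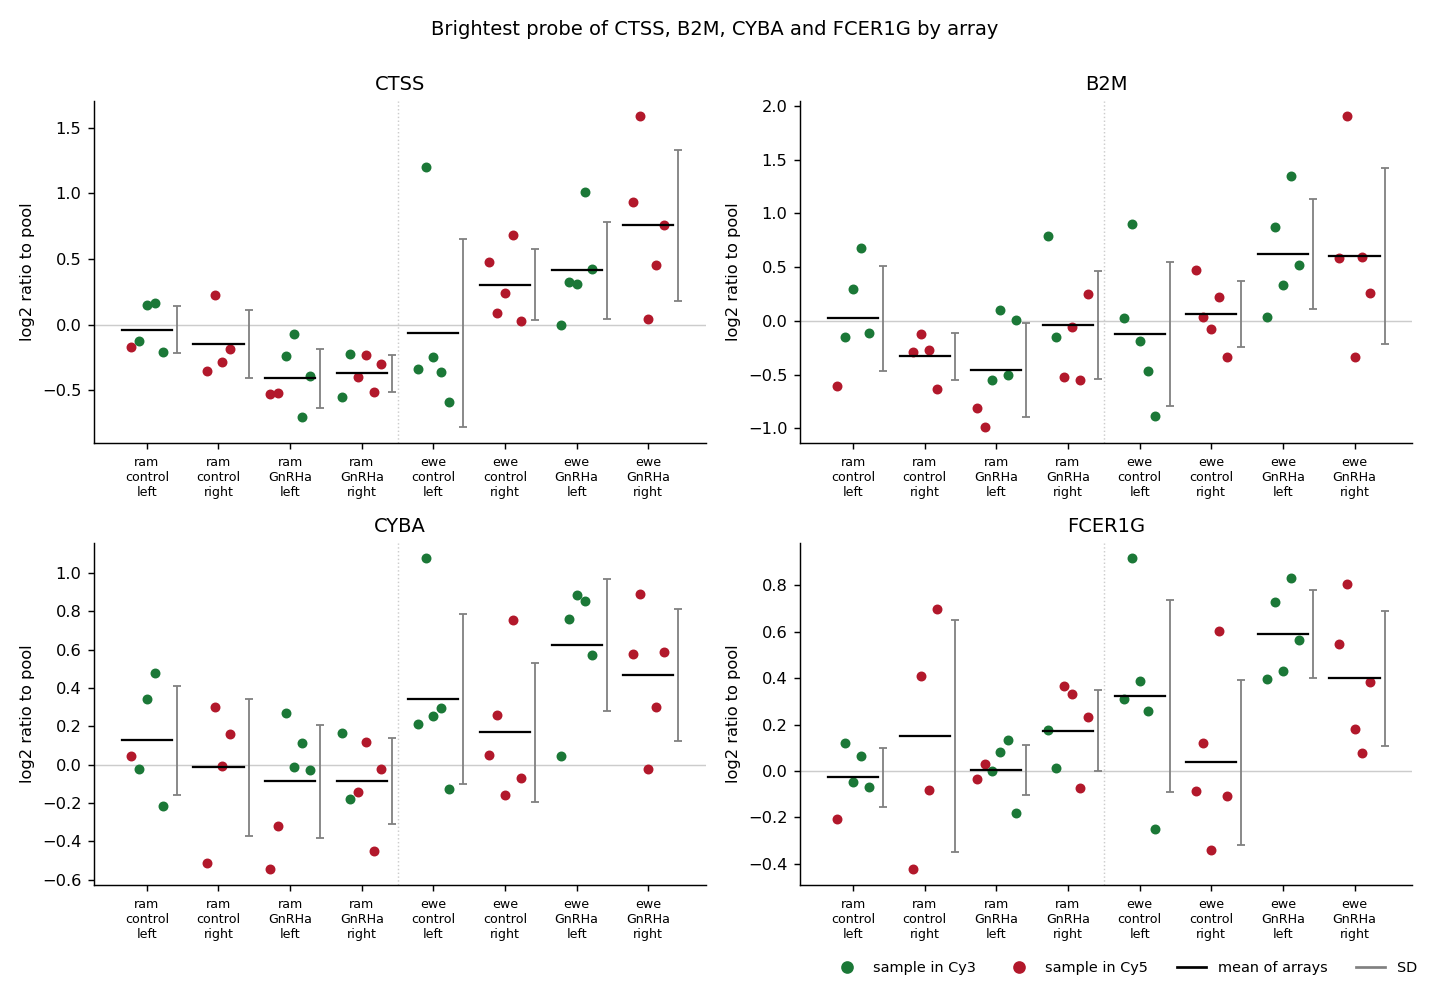
Log2 ratio to the pool (vertical axis) of the brighter probe of CTSS, B2M, CYBA and FCER1G on each used array, by sex, treatment and side (horizontal axis). Points are arrays coloured by the dye of the sample, black lines are means and grey bars SDs. For CTSS the 12 GnRHa ram arrays lie at -0.07 or below and the 10 GnRHa ewe arrays at -0.00051 or above.

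CYBA, the oxidase subunit, was also higher in GnRHa ewes than in GnRHa rams by both probes, of which 1 was called. The dimmer probe ran from -0.45 over 0.05 to 0.46 (lowest, median and highest) in control rams, -0.38 over -0.06 to 0.16 in GnRHa rams, -0.28 over 0.17 to 1.08 in control ewes and -0.08 over 0.66 to 1.11 in GnRHa ewes. Here 9 of 10 GnRHa ewe arrays exceeded the highest GnRHa ram array, and 1 lay inside the rams' range. The difference of GnRHa ewes minus GnRHa rams was 0.66 ± 0.14 (SE; limma, adjusted p = 0.0433) for this probe. The brighter probe differed by 0.63 ± 0.15 with an adjusted p of 0.0721, which became 0.0423 with the twin pair as a random block. In controls the brighter probe differed by 0.17.

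B2M had the widest spread within groups of the genes whose probes agreed. Control rams ran from -0.64 over -0.15 to 0.68, GnRHa rams from -0.99 over -0.33 to 0.79, control ewes from -0.89 over -0.02 to 0.90 and GnRHa ewes from -0.34 over 0.55 to 1.90. All 4 ranges overlapped, and 3 of 10 GnRHa ewe arrays lay above the highest GnRHa ram array. Under GnRHa the ewes were higher by 0.86 ± 0.22 (SE), which did not pass the adjustment (limma, adjusted p = 0.0913). B2M also had a dye term of -0.62 ± 0.25 (SE) for Cy5 over Cy3, which the fit took out.

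The adaptors FCER1G and TYROBP differed from each other in their pattern over groups. FCER1G ran from -0.42 over -0.05 to 0.70 in control rams, from -0.18 over 0.06 to 0.37 in GnRHa rams, from -0.34 over 0.19 to 0.92 in control ewes and from 0.08 over 0.49 to 0.83 in GnRHa ewes. In GnRHa ewes 8 of 10 arrays exceeded every GnRHa ram array, and the difference was 0.40 ± 0.13 (SE; limma, adjusted p = 0.296). TYROBP was on average lower in GnRHa ewes than in GnRHa rams, by a difference of -0.11 ± 0.08 (adjusted p = 0.796), and its 4 group ranges all overlapped.

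TYROBP was the 1 member probe called between control ewes and control rams on the left. In control rams the left arrays read -0.38, -0.16, -0.55, -0.45 and -0.34 and the right arrays 0.12, 0.02, -0.02 and 0.13, with no overlap. In control ewes the left arrays read 0.19, -0.06, -0.01, 0.11 and 0.26 and the right ones -0.50, -0.03, -0.38, 0.17 and -0.28, so the sides ran the other way and overlapped. On the left, control ewes exceeded control rams by 0.48 ± 0.12 (SE; limma, adjusted p = 0.0167), 1 call among 17 member probes where 5.11% of all probes were called, a share near the background. Right against left within control rams was not tested. The dimmer probe gave 0.48 ± 0.17 (adjusted p = 0.0942). The call held in 40 of 41 fits that left out 1 array, with an adjusted p of 0.0608 without the left array of control ram replicate 3, and was lost without the 4 outlying arrays (0.43, adjusted p = 0.129) and with all 56 columns (0.39, adjusted p = 0.761). On the right the difference was -0.27 ± 0.12 (adjusted p = 0.481). Of the 5 left control ram arrays 4 carried the sample in Cy3 and all 4 right ones in Cy5, and the dye's share in the difference between sides rests on the term fitted over all arrays.

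CD86, the costimulatory ligand, lay below the pool on most arrays of each group other than the right amygdala of GnRHa ewes, where 4 of 5 arrays lay above it. It ran from -0.87 over -0.25 to 0.03 in control rams, from -0.88 over -0.46 to 0.02 in GnRHa rams, from -1.44 over -0.52 to 0.81 in control ewes and from -0.76 over -0.17 to 1.29 in GnRHa ewes. The 5 right arrays of GnRHa ewes averaged 0.56 ± 0.75 (SD, n = 5) and the 5 left ones -0.38 ± 0.26 (SD, n = 5), and these ranges overlapped. These right arrays were all Cy5 and the left ones all Cy3, with the dye not removed from these averages. The dye term of this probe was 0.45 ± 0.25 (SE) for Cy5 over Cy3. With dye fitted, right minus left averaged over sexes and treatments ran from -0.24 to -0.10 when each array was left out. In the other settings it ran from -0.27 to 0.28. The difference between sides within GnRHa ewes was not tested. Under GnRHa the ewes were higher by 0.53 ± 0.22 (SE; limma, adjusted p = 0.502).

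No probe of CD14, LYZ or ITGAM was called in any of the 14 comparisons. CD14 lay between -1.92 and 1.16 in control ewes and between -1.39 and 0.29 in GnRHa ewes, and the difference of GnRHa ewes minus GnRHa rams was 0.11 (limma, adjusted p = 0.952). For LYZ that difference was 0.49 ± 0.40 (SE; adjusted p = 0.825), with GnRHa ewes from -1.72 over 0.28 to 2.47. ITGAM, read on 5 arrays of control rams (-1.56 over -0.72 to -0.22) and 6 of GnRHa rams (-1.16 over 0.62 to 2.02), overlapped between these groups. Its difference of GnRHa minus control rams was 1.49 ± 0.54 (SE; unadjusted p = 0.0118, adjusted p = 0.258).

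**Figure D2:**
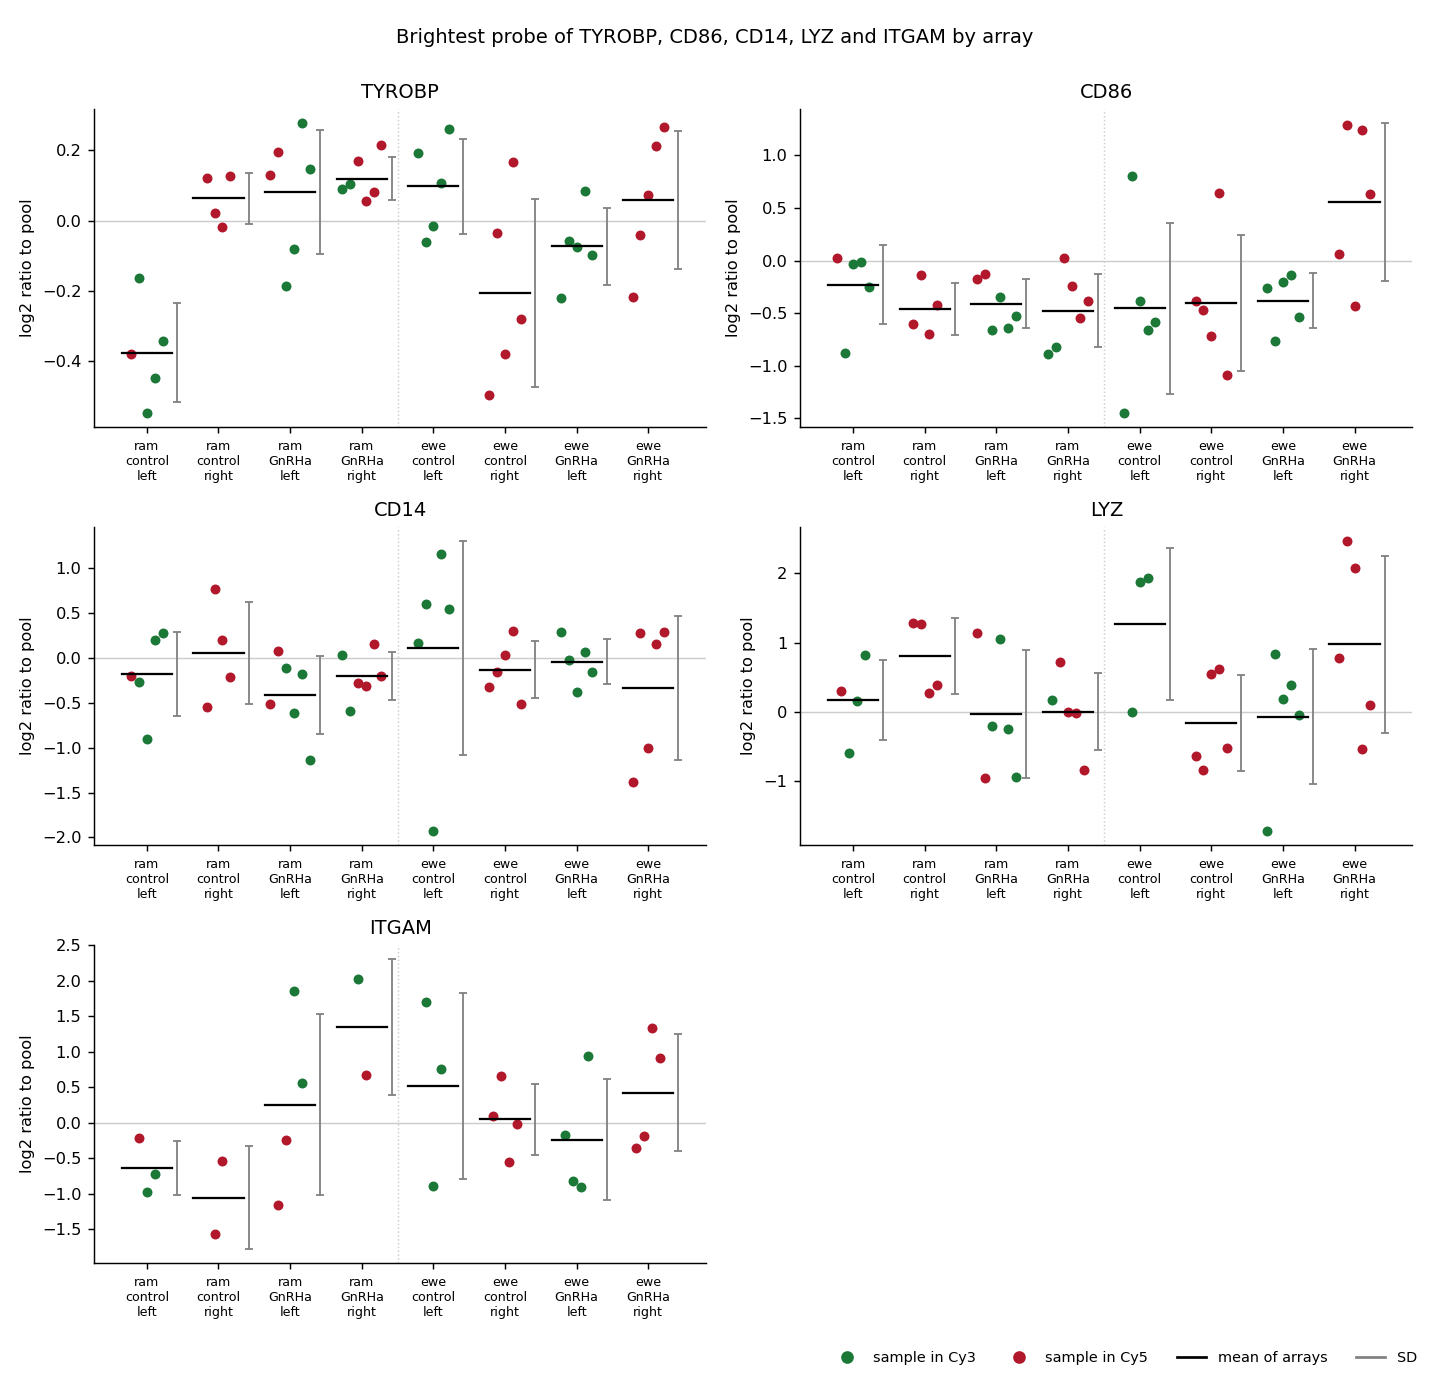
Log2 ratio to the pool (vertical axis) of the brighter probe of TYROBP, CD86, CD14, LYZ and ITGAM on each used array with a value, by sex, treatment and side (horizontal axis). Points are arrays coloured by dye, black lines are means and grey bars SDs. The TYROBP panel spans a narrower scale than the others, and its left control ram arrays lie at -0.16 or below.

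Averaged over sides, no member probe was called between control ewes and control rams in limma's fit (0 of 17, and 0 of 17 at an unadjusted p of 0.05). There 1.04% of all probes were called and 15.2% had an unadjusted p under 0.05. The TYROBP call given above was for the left side alone, and its difference on the right had the opposite sign. The member median was 0.11, with 15 probes higher and 2 lower in ewes, against a median of -0.00136 and 49.8% higher for all probes.

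Within a sex, no member was called for GnRHa against control. In ewes limma called 0 of 17 member probes and 0% of all probes, and 7 of 17 member probes had an unadjusted p under 0.05, against 3.85% of all probes. The member median was 0.29, with 13 probes higher and 4 lower under GnRHa, where 48.4% of all probes were higher. The differences were 0.64 ± 0.23 for B2M (SE; unadjusted p = 0.00733, adjusted p = 0.955), 0.52 ± 0.23 for CD86, 0.47 ± 0.18 for CTSS, 0.31 ± 0.14 for FCER1G and 0.29 ± 0.15 for CYBA. In rams limma also called 0 of 17 member probes and 0% of all probes, and 2 of 17 member probes had an unadjusted p under 0.05, against 11.9% of all probes. There the member median was -0.06. TYROBP was 0.26 ± 0.08 higher in GnRHa rams (SE; unadjusted p = 0.0037, adjusted p = 0.171), while CTSS differed by -0.31 ± 0.18 and B2M by -0.15.

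**Figure D3:**
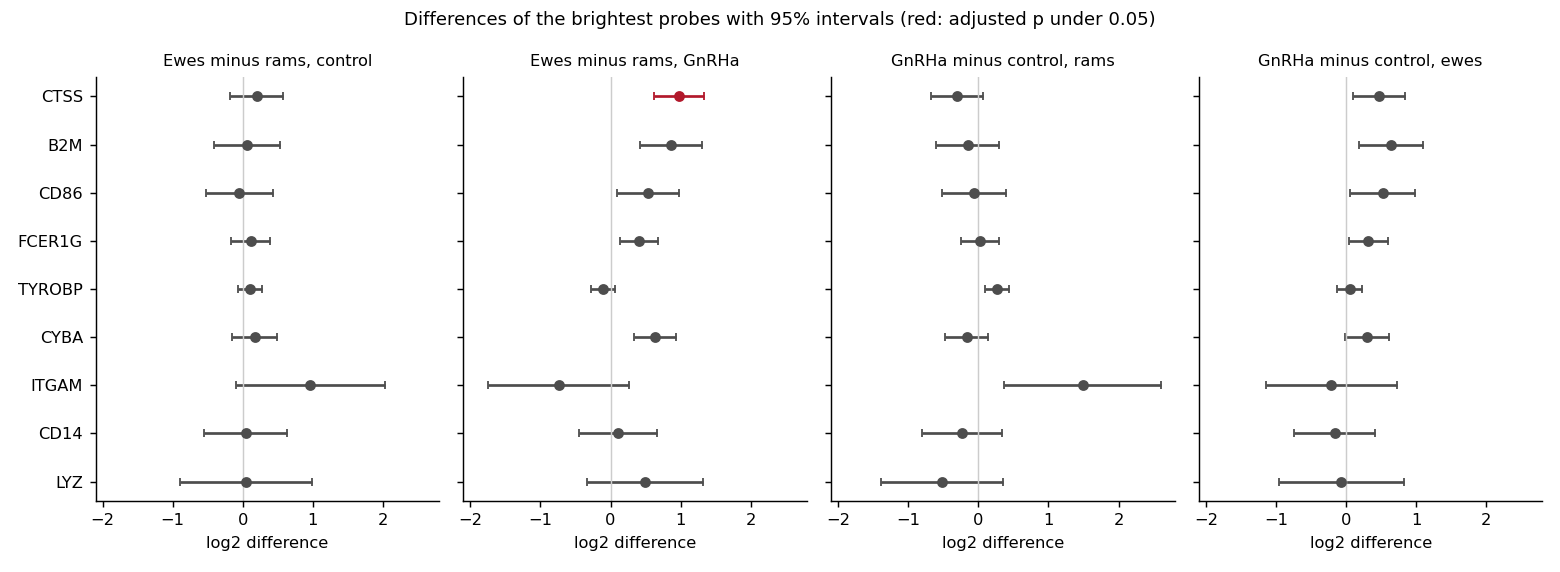
Log2 differences (horizontal axis) of the brighter probe of each gene in 4 comparisons, with 95% intervals from limma's fit of 41 arrays. Red marks an adjusted p under 0.05, which in these comparisons holds for CTSS in GnRHa ewes against GnRHa rams.

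The difference between the sexes in their response to GnRHa, tested as an interaction, was called by limma for 0 of 17 member probes and 0% of all probes. At an unadjusted p of 0.05 it held for 7 of 17 member probes and 7.87% of all probes. Ewes minus rams in the response was positive for 12 member probes and negative for 5. It was 0.78 ± 0.26 for CTSS (SE; unadjusted p = 0.00459, adjusted p = 0.468) and 0.80 ± 0.32 for B2M (adjusted p = 0.555), both made up of a positive difference in ewes and a negative one in rams. For ITGAM it was -1.70 ± 0.70 (SE; unadjusted p = 0.0247, adjusted p = 0.582), in the opposite direction. These comparisons share arrays, and the sex difference with GnRHa is not shown to differ from that without it.

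Set against its own twin on the same side, with the dye term removed, the treated ewe was higher in CTSS in 7 of 8 side-matched pairs from 5 pairs of twins (median 0.709, range -0.872 to 1.37). B2M, CD86 and FCER1G were also higher in 7 of 8, with medians of 0.629, 0.590 and 0.348, and CYBA in 6 of 8, with a median of 0.594. TYROBP and CD14 were higher in 3 of 8. In rams the treated twin was lower in CTSS in all 6 side-matched pairs, also from 5 pairs of twins (median -0.362, range -0.582 to -0.0435). TYROBP was higher in the treated ram in 5 of these 6 side-matched pairs, with a median of 0.188, and B2M in 2 of 6. These differences rest on the arrays of the comparisons above and are given without a test.

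The twin ewes numbered replicate 4 among both control and GnRHa ewes read above the median of the other ewes in several genes, though inside or overlapping their range in each. Their 4 arrays read 0.754 to 1.07 for CYBA, where the other 16 ewe arrays had a median of 0.257 and reached 0.886. For FCER1G they read 0.602 to 0.916, against a median of 0.283 and a highest value of 0.831. For CTSS they read 0.325 to 1.59, against 0.166 and 1.01. All 4 arrays lay above the other ewes' median in these 3 genes and in B2M, LYZ and CD14, and both twins, the untreated one included, shared this. For CD86 3 of the 4 did, with a lowest value of -0.763, and for TYROBP 1 of the 4. Among the 4 highest of the ewe arrays were 2 of the pair's for CTSS and for CYBA and 3 for FCER1G and for B2M. Without this pair the CTSS difference of GnRHa ewes minus GnRHa rams was 0.88 (limma, adjusted p = 0.000312), and 2 member probes were again called.

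Between sides, averaged over sexes and treatments, limma called 0 of 17 member probes and 0.139% of all probes. An unadjusted p under 0.05 was found for 2 of 17 member probes and 12.5% of all probes. The B2M difference of right minus left was 0.54 ± 0.24 (SE; adjusted p = 0.346) but 0.05 with no dye term and 0.03 with all 56 columns. Its arrays averaged 0.62 on the left and 0.60 on the right in GnRHa ewes, and 0.02 and -0.33 in control rams, so this value rests on the dye term. Within sides, the excess of GnRHa ewes over GnRHa rams in CTSS was 1.15 ± 0.24 on the right (SE; limma, adjusted p = 0.0499), the 1 member called where 0.0696% of all probes were. On the left CTSS differed by 0.80 ± 0.24 (adjusted p = 0.0644), and the dimmer CYBA probe, by 0.72 ± 0.20 (adjusted p = 0.0455), was the 1 member called there, against 2.19% of all probes. Leaving out 1 array kept the right CTSS call in 10 of 41 fits and the left CYBA call in 28 of 41, and both were lost without the turned columns, with them as deposited, without the 4 outlying arrays and with all 56 columns. In GnRHa against control ewes, 16 of 17 member probes were higher on the right, with a median of 0.39, where 48.4% of all probes were, and 10 of 17 on the left, with a median of 0.13, against 49.6%. There limma called 0 member probes and 0% of all probes on each side. At an unadjusted p under 0.05 there were 4 member probes on the right (6.42% of all probes) and on the left (5%) the 2 probes of B2M, and the difference between sides was not tested. In GnRHa against control rams limma called 0 member probes on the left (0.302% of all probes) and 0 on the right (0.0387%), with 3 (15.1% of all probes) and 1 (8.96%) at an unadjusted p under 0.05. In control ewes against control rams on the right it called 0 member probes (0.0773% of all probes), with 1 at an unadjusted p under 0.05 (9.27%).

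Across animals, with group means and dye removed and sides averaged, the genes split into those that varied with each other and those that did not. Of 36 pairs of genes, 9 were called by a two-sided permutation test with Benjamini-Hochberg adjustment over the 36, and all 9 were positive correlations among CTSS, CD86, CYBA, FCER1G and B2M. CTSS and CD86 gave Pearson's r of 0.837 over 25 animals (adjusted permutation p = 0.00036; Spearman's rho 0.757), and r was 0.683 without the 2 animals farthest from the median. FCER1G and CYBA gave 0.773 (adjusted permutation p = 0.00045; rho 0.747) and 0.684 without the 2 farthest. CTSS and B2M gave 0.731 (adjusted permutation p = 0.00036; rho 0.674) and 0.656. The 10th pair of these 5 genes, B2M and FCER1G, gave 0.368 (adjusted permutation p = 0.196). TYROBP correlated with the other genes between -0.107 and 0.351, with none called, and its r with FCER1G was 0.183. Without the twin ewes of replicate 4 the number of called pairs fell to 3 (CTSS with B2M, CTSS with CD86, FCER1G with CYBA). CTSS then gave r of 0.683 with CD86 and 0.656 with B2M, the same values as without the 2 farthest animals. For CTSS these 2 checks are therefore not separate. CTSS and FCER1G gave 0.647 over all animals and 0.382 in both checks.

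Within arrays of a single dye, CTSS and B2M gave r of 0.760 in Cy3 and 0.837 in Cy5, and FCER1G and CYBA 0.720 and 0.837. The number of called pairs was 8 with the group means kept. The animals share a pool, and twins share a litter, so the points are not fully independent. With the twin pair as the unit, 9 pairs of genes were called by Pearson's r and 0 by Spearman's rho over 13 to 15 pairs of twins.

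**Figure D4:**
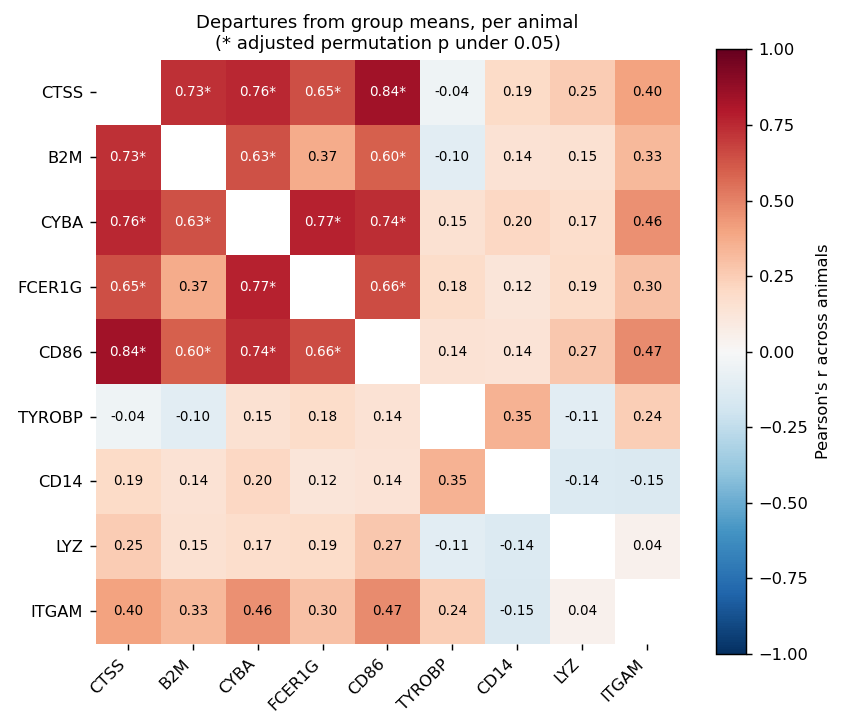
Pearson's r between the brighter probes of the 9 genes across 19 to 25 animals, with group means and dye removed and sides averaged; both axes list the genes and the colour gives r. Stars mark an adjusted permutation p under 0.05, and the 9 starred pairs all lie among CTSS, CD86, CYBA, FCER1G and B2M.

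Among the 497 other named genes measured on all 41 arrays, those whose ratios followed the members most closely were partly shared, and r is given as a description over arrays that share a pool and, by animal, 2 sides. The dye term was removed but group means were kept, so differences between groups enter r. For CTSS they were CXCL10, an interferon-induced chemokine (r = 0.832), ADORA3, an adenosine receptor (0.703) and RPL13A, a ribosomal protein (0.693). For CYBA they were CXCL10 (0.734), ITGB2, the beta chain shared by the leukocyte integrins (0.734) and ADORA3 (0.729). For B2M they were RPL13A (0.714), ADORA3 (0.707) and CXCL10 (0.694). FCER1G had LOC443338 (0.828), ITGB2 (0.785) and ADORA3 (0.730). TYROBP shared none of these, and its closest were LOC443297 (0.714), SPRY-2 (0.690) and CSN2 (0.676).

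The array also carries 15 tested probes for sheep MHC class I, whose light chain is B2M, and 9 for class II, whose loading CTSS serves. Probes of closely related transcripts are not independent of each other. In GnRHa ewes against GnRHa rams, 14 of the 15 class I probes were higher, with a median of 0.94, and 8 of the 9 class II probes, with a median of 1.32. Of each class 1 probe was called, against the same 0.155% of all probes. The class I transcript M34676 ran from -0.04 over 0.53 to 2.14 in GnRHa ewes and from -0.69 over -0.60 to 0.44 in GnRHa rams, overlapping, and differed by 1.00 ± 0.20 (SE; limma, adjusted p = 0.0381). The DR-alpha transcript M73983 ran from -0.49 over 0.92 to 2.67 in GnRHa ewes and from -1.62 over -0.88 to -0.26 in GnRHa rams, also overlapping, and differed by 1.76 ± 0.38 (SE; limma, adjusted p = 0.0433). In control ewes against control rams 14 of 15 class I probes were also higher, with a median of 0.36, and 5 of 9 class II probes, with a median of 0.10.

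**Figure D5:**
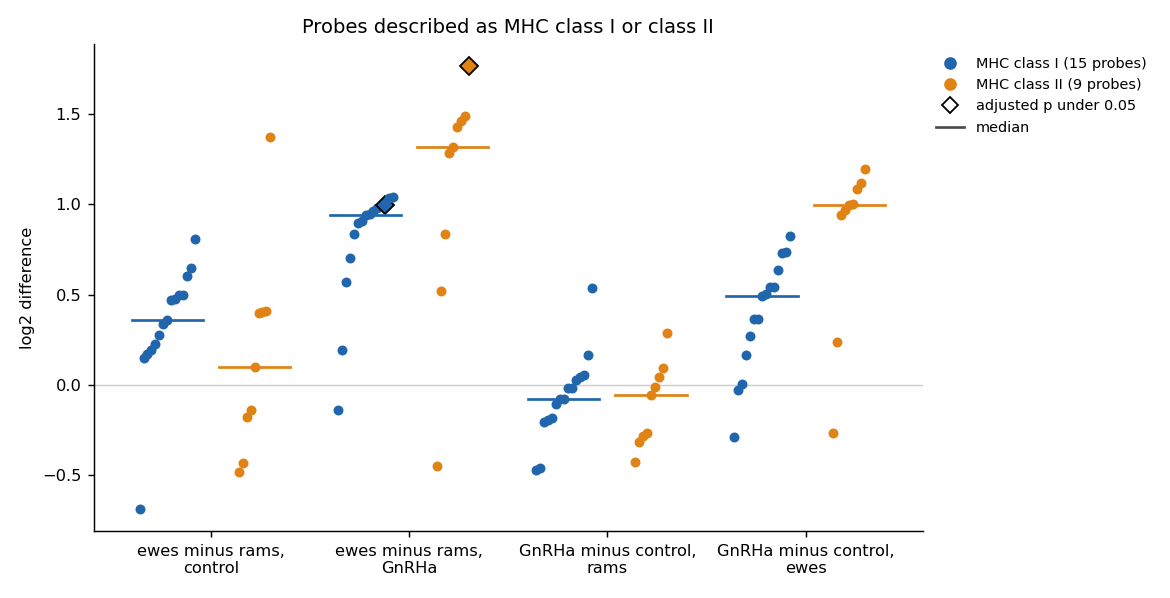
Log2 differences (vertical axis) of 15 MHC class I and 9 class II probes in 4 comparisons (horizontal axis), each point a probe. In GnRHa ewes against GnRHa rams 14 of 15 and 8 of 9 lie above 0.

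Across the 41 arrays with dye removed, the median r with the 8 class II probes measured on all of them was 0.810 for CTSS, 0.795 for B2M, 0.741 for CYBA, 0.607 for CD86 and 0.582 for FCER1G, but 0.108 for TYROBP. With the class I probes it was 0.675 for CTSS, 0.662 for B2M, 0.660 for CYBA, 0.522 for FCER1G, 0.441 for CD86 and 0.0514 for TYROBP. The order of the genes was thus alike for both classes apart from CD86 and FCER1G, and TYROBP stood last among these 6 in each. For CTSS the r of single probes ran from 0.204 to 0.89 in class II and from -0.207 to 0.783 in class I. Group means were kept, so differences between groups enter each r, and the 41 arrays came from 25 animals.

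Further genes of the same pathways were few. Of 26 microglia and macrophage genes listed, 9 were named on the array, and of these ITGB2, CYBB and SLC11A1 were tested non-members: all 3 were higher in GnRHa ewes than in GnRHa rams, by 0.10 to 0.43, and 0 were called. The cathepsins CTSB and CTSD, also lysosomal proteases, were both higher, by 0.10 and 0.36, and 0 were called. They were higher by 0.34 and 0.56 in control ewes than in control rams, and GnRHa minus control ewes was -0.13 and -0.08. Of 5 interferon-response genes 5 were higher in GnRHa ewes than in GnRHa rams, by 0.17 to 1.70. Of these limma called ISG15, a ubiquitin-like protein, at 1.70 ± 0.38 (SE; adjusted p = 0.0468). In control ewes against control rams 4 were also higher and 1 lower (-0.40 to 1.07, median 0.19), with 0 called. Other lists were mixed in GnRHa ewes against GnRHa rams. Among 3 tested non-members of the lipopolysaccharide receptor complex 2 were higher and 1 lower (-0.23 to 0.48). For T cell costimulation 1 was higher and 2 were lower (-0.26 to 0.40). LGMN, the 1 tested non-member listed for antigen presentation apart from MHC, differed by -0.00793. In these lists 0 non-members were called.

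Markers of other cells were set beside these differences. The 3 lymphocyte genes on the array averaged -0.258 to 1.05 per array in GnRHa ewes and -1.33 to 0.909 in GnRHa rams, and 3 of 3 were higher in ewes, with 0 called. The 5 astrocyte genes averaged -0.453 to 0.673 and -0.434 to 0.537, with 4 of 5 higher and 0 called. The endothelial genes KDR and FLT1 were higher in ewes by 0.22 and 0.25, and both red blood cell genes were lower, with 0 called. TTR, the transthyretin of the choroid plexus, ran from -4.34 to 0.511 in GnRHa ewes and from -3.69 to 1.89 in GnRHa rams, a wider range than that of any brighter member probe in the same group. None of the listed neuron, oligodendrocyte or neutrophil genes was named on the array. The part of these cells in the differences of CTSS and CYBA was not tested.

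In the authors' deposited table, which sets each group of all its arrays against the pool, CTSS had a log2 fold change of 0.574 in right arrays of GnRHa ewes (authors' adjusted p = 0.0246). In left arrays of GnRHa ewes CTSS had 0.225 (authors' adjusted p = 0.339). These fold changes include the arrays not used above. Over non-control spots they followed the mean of all deposited columns only in part, with r of 0.62 for left and 0.51 for right arrays of GnRHa ewes. With the mean of the used columns r was 0.52 on the left and 0.36 on the right. The dimmer CYBA probe in the authors' deposited table had 0.278 on the left (authors' adjusted p = 0.021) and 0.309 on the right (authors' adjusted p = 0.0363) of GnRHa ewes. The brighter CYBA probe had 0.264 on the left (authors' adjusted p = 0.159) and 0.292 on the right (authors' adjusted p = 0.286) of GnRHa ewes.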

How the data were processed

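RNA of left and right amygdala was hybridised to 2-colour Agilent arrays and read with Agilent Feature Extraction 9.1, per the submitters' processing notes. The deposited values per array are log2 ratios, taken here as sample over pool, since the labels name neither their direction nor the background correction or normalization. For each group the authors deposited log2 fold changes against the pool, a score (limma's moderated t) and p-values before and after adjustment. No totals of counts exist for arrays, and their number limits the precision. Among arrays of the same dye, correlations over all probes ran from -0.243 to 0.449, with 0 of 400 pairs under -0.3.

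The columns were set against spike-in ratios (absolute slope minimum 0.5), and a column turned for its negative slope had its dye taken as the opposite of its label. Probes with at least 2 values in every group were tested, 9370 of them measured on all arrays. Generalised least squares fitted 8 group means and dye to 41 arrays, with animal as a random block (correlation 0.147). The code was written after limma's, with the variance of each contrast taken from each probe's own missing values. limma 3.58.1 in R 4.3.3 supplied the within-animal correlation and the moderation of variances used in eBayes. Benjamini-Hochberg adjustment was over all probes, at a threshold of 0.05. This fit is called limma's throughout. Differences are ewes minus rams, GnRHa minus control and right minus left. The fit was tested on simulated data. Correlations used 100000 permutations in scipy 1.17.1, with numpy 2.4.6, pandas 2.3.3 and Python 3.11.15, and figures matplotlib 3.10.9.

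Members and lists were chosen with earlier results of these data known. The brightest probe stands for a gene. From other lists the text takes genes past the threshold or of lowest p, and the 3 genes of highest r with each of 5 members, and the remaining list genes given were chosen after their values were seen. Replicate numbers follow accession order. Twins come from the labels, and in the 10 pairs with both animals used their residuals correlated between -0.0692 and 0.31, over 0.1 in 3. Alternatives covered columns, dye, blocks, weights, filters, scaling, moderation and leaving out arrays.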

Additional observations from a re-analysis of the deposited data

Results flagged for a closer look

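The left array of control ewe replicate 4 read 1.20 for CTSS, while the other 4 arrays of its group lay between -0.59 and -0.25. It was picked out because its distance from the nearest other array, as a share of the range of the group, exceeded Dixon's critical value for 5 arrays. Of 67 groups of a member and its arrays tested in this way 1 was so marked, and chance marks about 1 in 20. The animal is the untreated twin of the pair of ewes whose 4 arrays all lay above the median of the other ewes in CYBA, FCER1G and B2M, with ranges that overlapped those of the others. Without this array the CTSS difference of GnRHa ewes minus GnRHa rams was 0.98 (limma, adjusted p = 0.000251), and that of GnRHa minus control ewes stayed uncalled.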

How the results depend on the processing

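For the sex difference under GnRHa, 2 member probes were called. The count was 0 with all 56 columns, without the turned columns, with them as deposited, without the 4 outlying arrays and with Cy3 arrays only. It was 1 with Cy5 arrays only, 4 with no block, and 5 with array weights or a mean-variance trend, and from 1 to 5 when each array was left out. With a replicate block for the twin pair as a random term it was 3, and the pairing changed no call but that of the brighter CYBA probe. A fixed twin term could not be fitted for sex differences, since twins are of the same sex. In controls Cy3 arrays alone called 1 (TYROBP, 0.47, adjusted p = 0.0401). Among left arrays under GnRHa the count of 1 became 0 with all 56 columns, without the turned columns, with them as deposited and without the 4 outlying arrays, 2 without the dye term or without the twin ewes of replicate 4, and 0 to 2 when an array was left out. Among right arrays under GnRHa the count of 1 became 0 in the same 4 settings and 0 to 1 when an array was left out. For left controls the count of 1 became 0 with all 56 columns and without the 4 outlying arrays, and 0 to 2 when an array was left out. For GnRHa against control rams on the left the count of 0 became 1 without the twin ewes of replicate 4 and 0 to 1 when an array was left out. Called pairs of genes fell from 9 to 3 without the twin ewes of replicate 4. The causes were not tested.

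Of 3090 alternative values of the brighter probes in the 6 comparisons averaged over sides or sexes, most of them uncalled throughout, 5 lost and 12 gained a call, 105 differed in sign and 0 of these were called. The dimmer CYBA probe, not among them, was called in 20 of 41 fits without 1 array and 11 of 17 other settings, and within sides CTSS on the right in 10 of 41 and CYBA on the left in 28 of 41. The number of all probes called moved more: under GnRHa 20 probes differed by sex, against 4 to 66 when an array was left out and 3 to 137 in the other settings. In controls it was 134, against 9 to 350 and 2 to 530. Between sides it was 18, against 2 to 43, and 557 with no dye term. For GnRHa in rams the 0 became 154 without the right array of control ram replicate 5 and 189 with array weights, and in ewes at most 11, without the twins of replicate 4. The fits without the outlying arrays, without those twins, by single dye, with turned columns as deposited and by twin pair means, and within a side all but those with all 56 columns and no dye term, were chosen after seeing the data. Dim spots limit CD14, ITGAM and LYZ, and no spot could be set against its background.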
